A study of Mus musculus with 7 samples.

Results

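The genes described here are 10 that mark or control the bone and cartilage lineages: Alpl, Runx2, Sp7, Sox9, Sox5, Sox6, Acan, Mgp, Ibsp and Dlx5. They were taken by name, as every probe on the array whose gene name is one of these, which gave 15 probes for 10 of the 34792 gene names on the array. For 7 genes there was 1 probe and for 3 (Runx2, Sox5 and Ibsp) there were several. At least 1 probe was well above background on at least 1 array for 8 of the 10 genes, on all 4 cultured samples for the main probe of 5 genes, and on all 7 arrays for the main probe of 4.

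Total RNA of 7 mouse samples was hybridised to single-colour Agilent arrays. The cultured samples were cardiac mesenchymal progenitors (CMPs) of adult mice, adherent stromal cells grown from heart tissue of C57BL/6 background. They were grown on collagen I in DMEM/F12 with 10% fetal bovine serum and 40 ng/ml bFGF. Any comparison of CMPs with fetal heart therefore also sets adult against embryonic tissue, and the 2 cannot be told apart. Postmortem CMPs came from tissue held for 24 h at 4 °C (1 ventricular and 1 atrial array) and living CMPs from tissue not so held (1 ventricular and 1 atrial array). The hearts were 1 array of commercial adult RNA from Clontech, whose strain the labels do not give, and 2 arrays of embryonic day 16.5, namely 1 of C57BL/6-Tg(Myh6-EGFP)MG2, in which the Myh6 promoter drives EGFP in cardiac muscle, and 1 of wild-type C57BL/6. Nothing in the labels says that arrays of a group are repeated cultures or separate animals, so each p-value is relative to the spread among these few arrays. That spread comes from the fetal pair, which differ in genotype, and from how far the postmortem difference varied between chambers. How much of it is technical cannot be told. All CMP arrays lay in slide row 1 and all heart arrays in row 2, so row and the difference between CMPs and hearts cannot be told apart.

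Bone is built by osteoblasts, whose commitment depends on the transcription factors Runx2 and then Sp7 (osterix), with Dlx5 acting beside them, and whose mineral deposition needs the phosphatase Alpl and the matrix protein Ibsp. Cartilage is built by chondrocytes under Sox9, with Sox5 and Sox6 as partners and Acan (aggrecan) as the main proteoglycan. Mgp (matrix Gla protein) is known in arteries, cartilage and heart valves as an inhibitor of calcification. Cultured mesenchymal stromal cells are often tested for their ability to enter both lineages.

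Levels are given as log2 of the processed signal minus the array's 75th percentile, so a level of 0 equals the 75th percentile of that array, and each is compared only with the same probe on other arrays. In whole tissue a lower level can come from fewer cells of a type or from less RNA per cell, which cannot be told apart. Checked against markers fixed for each cell type, all 10 stromal markers were above background on every array, with summed linear levels of 1643 to 2155 on CMPs, 597 in adult heart and 436 to 596 in fetal hearts. Of the 10 cardiomyocyte markers, 1 to 4 were above background on a CMP array, with a sum of 1.47 to 17.4, against 10 of 10 and sums of 2994 to 8854 on the heart arrays. Endothelial markers were above background on CMPs too, 7 to 8 of 8, with sums of 9.85 to 19.1 against 38.1 to 61.0 in hearts, as were leukocyte markers, 6 to 7 of 8, with sums of 48.6 to 71.9 against 106.1 in adult and 29.1 to 35.4 in fetal heart. Of each CMP leukocyte sum 89.3% to 90.0% was Itgam alone, while Ptprc was above background on 1 CMP array and Adgre1 on none. Kdr alone made up 53.6% to 90.2% of each CMP endothelial sum, at 2.71 to 3.44 on CMPs and 2.74 to 3.56 in hearts. The median level of the endothelial list was -3.24 to -0.04 on CMPs and 2.11 to 2.88 in hearts. Tnnt2 made up 73.6% to 98.3% of each CMP cardiomyocyte sum. A pair of arrays was singled out in the genes treated here. The wild-type fetal heart array held all 6 airway epithelium, all 4 liver and 5 of 6 skeletal muscle markers above background. The postmortem atrial array alone among CMPs held Dlx5 and 7 further listed genes above background, where the postmortem ventricular array alone held 5 listed genes. Over all genes these numbers were 733 for the postmortem atrial and 859 for the postmortem ventricular array. Results of the members and the lists are also given without the wild-type fetal array and without the postmortem atrial array.

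The main probe of Sox5 and the 3 probes of Runx2 decide how these genes can be read, so their first 30 bases of 60 are printed, 5′ to 3′. For Sox5, capitals mark the longest run of A and G in the bases shown, or the first of several runs of equal length.
Sox5 A_55_P2156905: GGAGGAGGAGGAAGAGGAGGAGGAGGAAGA
Sox5 A_51_P500318: ttacaagcaaaaacgtcatcAAGAAGAAGA
Sox5 A_55_P2088765: ctGGGcccatgggcaaattcaatcagatgc
The brightest Sox5 probe is a purine repeat, with A or G at 60 of its 60 bases, against 40 and 41 of 60 in the other Sox5 probes. For Runx2, capitals mark the ATG at which the long isoform from the distal promoter is known to begin.
Runx2 A_65_P18181: tgattgtttttctcatttatacctacattt
Runx2 A_52_P460545: gcagcacgctattaaatccaaatttgccta
Runx2 A_52_P55876: aaaggagggactATGgcgtcaaacagcctc
Positions of the Runx2 probes in the deposited tables (mouse build mm9, minus strand) are chr17:44633034-44633093, chr17:44744925-44744984 and chr17:44951128-44951187 in the order printed. By accession the first, the main probe, matched 0 RefSeq transcripts of Runx2, the second matched 3 and the third matched 2. The Sox5 probes lie on the minus strand at chr6:143776945-143776971, chr6:143781520-143781579 and chr6:143787982-143788041, and the first of these intervals covers 27 bases of the 60-base probe. By accession the first and second Sox5 probes each matched 3 RefSeq transcripts and the third matched 0.

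Alpl, the tissue-nonspecific alkaline phosphatase that frees phosphate for mineral, was well above background on all 7 arrays (1 probe, chr4:137297658-137297716, minus strand). Its level was 1.17 in postmortem ventricular and -0.18 in postmortem atrial CMPs, 3.38 in living ventricular and 3.88 in living atrial CMPs, 1.58 in adult heart, and -1.41 in Myh6-EGFP and -0.87 in wild-type fetal heart. In processed signal, the postmortem CMPs had 843 and 299.6 units and the living CMPs 3058 and 4929 units in the same chamber order. Both living CMP arrays lay above every other array, both fetal hearts lay below every other array, and adult heart lay between the postmortem and the living CMPs.

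The postmortem CMPs were lower in Alpl by value in both chambers, with a difference of -2.21 in the ventricular and -4.06 in the atrial pair, where the median absolute difference over all genes was 0.229 and 0.298. The mean difference was -3.14 ± 0.47 (SE), with an adjusted p of 0.163 in limma, so it did not pass the threshold of 0.05. The groups did not overlap, which was so in the lower direction for 20.1% of the 19011 genes tested. The size of the difference in the atrial and ventricular pairs was not shown to differ (interaction adjusted p = 0.0962, limma). The fit with the interaction takes its spread from the fetal pair alone. With any 1 of the 4 CMP arrays left out the difference did pass, but such a fit takes its spread from the fetal pair alone and assumes that the lone array varies like the others. Over all settings the difference ran between -4.06 and -2.21. Ventricular and atrial CMPs differed in Alpl by 0.42 ± 0.47 (adjusted p = 0.902). By pair the difference was 1.35 among postmortem and -0.51 among living CMPs, and without either living array the 1.35 passed the threshold (adjusted p of 0.0414 and 0.0441).

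In CMPs as a whole Alpl was higher than in fetal heart by 3.20 ± 0.41 (adjusted p = 0.00214, limma), and this call held in all 17 alternative settings. Against adult heart the difference was 0.48 ± 0.52 (adjusted p = 0.479), with adult heart inside the range of the CMP arrays. Over 16 alternative settings the difference ran from 0.02 to 0.94, and 14 of them gave the same result. Without the postmortem atrial array it was 0.94, in a fit that took its spread from the fetal pair alone. Adult heart exceeded fetal heart by 2.72 ± 0.57 (adjusted p = 0.0174), a call lost when either fetal array was left out (adjusted p = 0.0505 and 0.0662).

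Runx2, the factor required for osteoblast formation, was read by 3 probes that did not give the same picture. The main probe, A_65_P18181, had levels of -1.45 in postmortem ventricular, -1.44 in postmortem atrial, -1.46 in living ventricular and -2.38 in living atrial CMPs, then -3.57 in adult heart, -6.13 in Myh6-EGFP and -3.72 in wild-type fetal heart. It was above background on the 4 CMP arrays and on wild-type fetal heart, and all CMPs lay above all hearts. Within CMPs, 3 arrays were nearly equal and the living atrial array was lower.

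Runx2 differed by 0.48 ± 0.82 between postmortem and living CMPs (adjusted p = 0.889) and by 0.46 ± 0.82 between ventricular and atrial CMPs. It was higher in CMPs than in fetal heart by 3.24 ± 0.72 (adjusted p = 0.0144, limma). That size includes the Myh6-EGFP fetal array, where the probe was dim, so Runx2 entered this test through the CMPs alone. Without that array the difference was 2.04 and still passed. Against the Myh6-EGFP array alone Runx2 has only a bound and was at least 5.12-fold higher in CMPs. With normexp background correction it was 1.06. Against adult heart, where the probe was not well above background, Runx2 was at least 3.31-fold higher in CMPs, a bound that sets the CMP mean against the lowest signal counted as above background on the dim array. The fitted difference did not pass the threshold (1.89 ± 0.92, adjusted p = 0.142), but did in 6 fits that left out 1 array (adjusted p of 0.00576 to 0.042).

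The second Runx2 probe, A_52_P460545, was above background on 3 CMP arrays, at -3.06 in postmortem ventricular, -3.54 in postmortem atrial and -3.02 in living ventricular CMPs. It was not above background in living atrial CMPs (-3.99) or in any heart (-4.86 in adult, -5.10 in Myh6-EGFP and -4.16 in wild-type fetal heart). The bound came to 1.62-fold in CMPs over fetal heart and 1.004-fold over adult heart. The CMP mean in it includes the dim living atrial array, so neither value is a strict bound. The probe that carries the distal start codon, A_52_P55876, was not above background on any array. Signal for Runx2 was thus seen with 2 of its 3 probes, the brighter of which matched 0 RefSeq transcripts.

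Sp7, which acts after Runx2 in osteoblasts, was dim on all arrays, with levels of -6.59 to -5.49 (chr15:102187692-102187751). Ibsp, the bone sialoprotein of mineralising matrix, was not above background on any array with either of its probes (chr5:104740413-104740472 and chr5:104739720-104739779). These genes were not tested, and their levels bound the signal without showing that the transcripts were missing.

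Dlx5, a homeobox factor of developing bone, was above background on 2 arrays only. Its level was -1.23 on the postmortem atrial array (144.2 units of processed signal) and -3.19 in wild-type fetal heart. It was -6.46 in postmortem ventricular, -5.94 in living ventricular and -6.03 in living atrial CMPs, -4.87 in adult heart and -3.86 in Myh6-EGFP fetal heart, none of them above background. One CMP array of 4 was therefore high and the other 3 were dim. Since Dlx5 was not above background on every array of any side, no comparison of it was tested on the full set of arrays. It became testable where the lone array left on a side was the postmortem atrial one. Without the postmortem ventricular array it was called higher in postmortem than in living CMPs (adjusted p = 4.45e-06), and without the living atrial array it was called lower in ventricular than in atrial CMPs (adjusted p = 4.49e-07). Both calls set 1 bright array against dim ones, on which Dlx5 has only a bound.

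**Figure D1:**
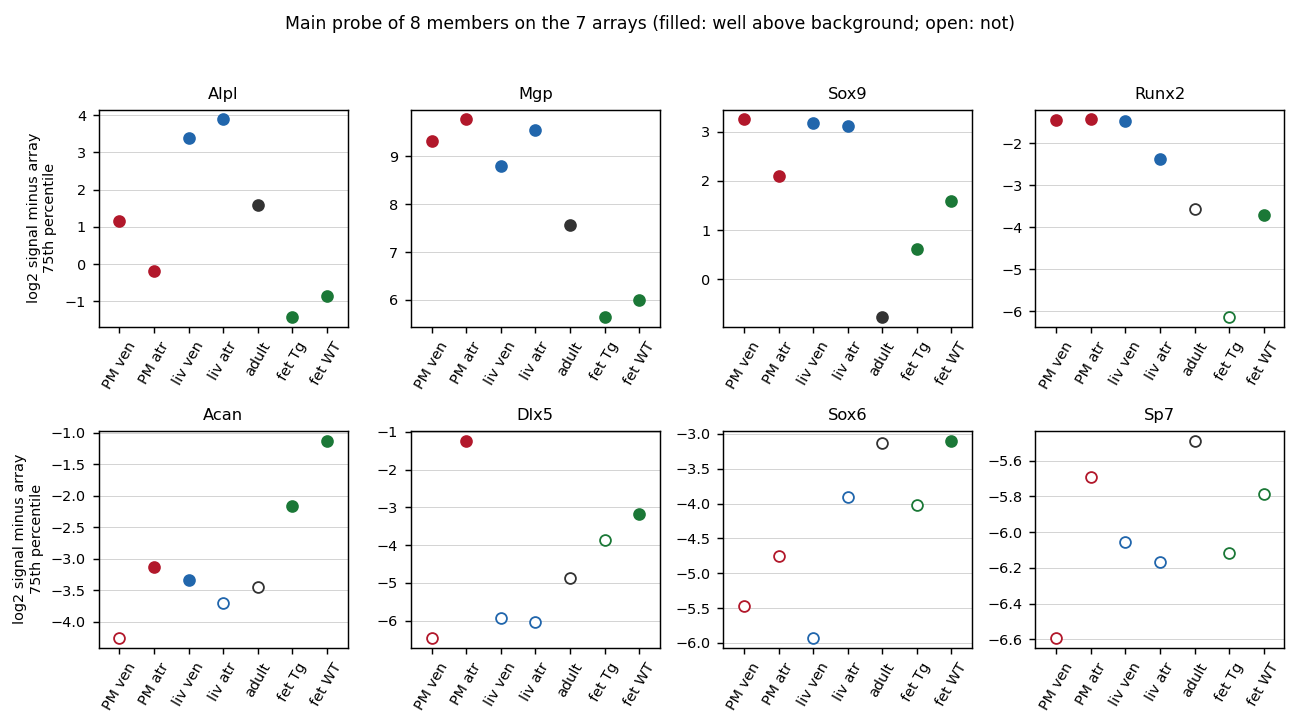
Main-probe level of 8 of the 10 genes (y axis, log2 processed signal minus the array's 75th percentile) on the 7 arrays (x axis: PM, postmortem CMPs; liv, living CMPs; ven, ventricular; atr, atrial; adult, adult heart; fet Tg, Myh6-EGFP fetal heart; fet WT, wild-type fetal heart), 1 point an array, filled where well above background. Alpl was highest on the 2 living CMP arrays (3.38 and 3.88), Dlx5 stood at -1.23 on the postmortem atrial array against -6.46 to -5.94 on the other CMPs, and Sp7 was filled on no array.

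The same pattern as for Dlx5, above background on the postmortem atrial array and on no other CMP array, was looked for in the genes of the other lists. It was found for 7 of 92 listed genes (7.61%), against 733 of 34792 genes in all (2.11%). The corresponding numbers for single arrays were 5 of 92 for postmortem ventricular (5.43%, against 2.47% of all genes) and 1 of 92 for each living array (against 0.989% in ventricular and 1.04% in atrial). The 5 genes on the postmortem ventricular array were Bglap, Phospho1, Ifitm5, Chad and Runx3. The 7 genes on the postmortem atrial array included Dlx6 (-2.85), the neighbour and partner of Dlx5, and Dlx1 (-2.22), of which a further probe was dim on every array. Col10a1, the collagen of hypertrophic cartilage, was at -0.43 on that array and not above background on any other array. Pthlh, the parathyroid hormone-like signal of growth cartilage, was at 0.53 there, against -6.53, -6.02 and -6.08 on postmortem ventricular, living ventricular and living atrial CMPs. Pthlh was also above background in hearts, at -1.37 in adult, -0.96 in Myh6-EGFP and -0.56 in wild-type fetal heart. Phex (-3.43), an endopeptidase gene of phosphate balance, Nkx3-2 (-2.76), a homeobox gene of early cartilage, and Bcan (-3.24), a brain proteoglycan related to Acan, made up the rest. A further probe of Bcan was dim on every array. In hearts, Phex was above background in wild-type fetal heart (-1.43), and Bcan in Myh6-EGFP (-2.60) and wild-type fetal heart (-3.86). The values on the postmortem atrial array are from 1 array with no replicate, and no test was made. Among other markers, Foxa2 brought the summed level of the airway list to 1.75 on that array, against 0.0905 to 0.173 on the other CMPs, and its part in these values was not tested.

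**Figure D2:**
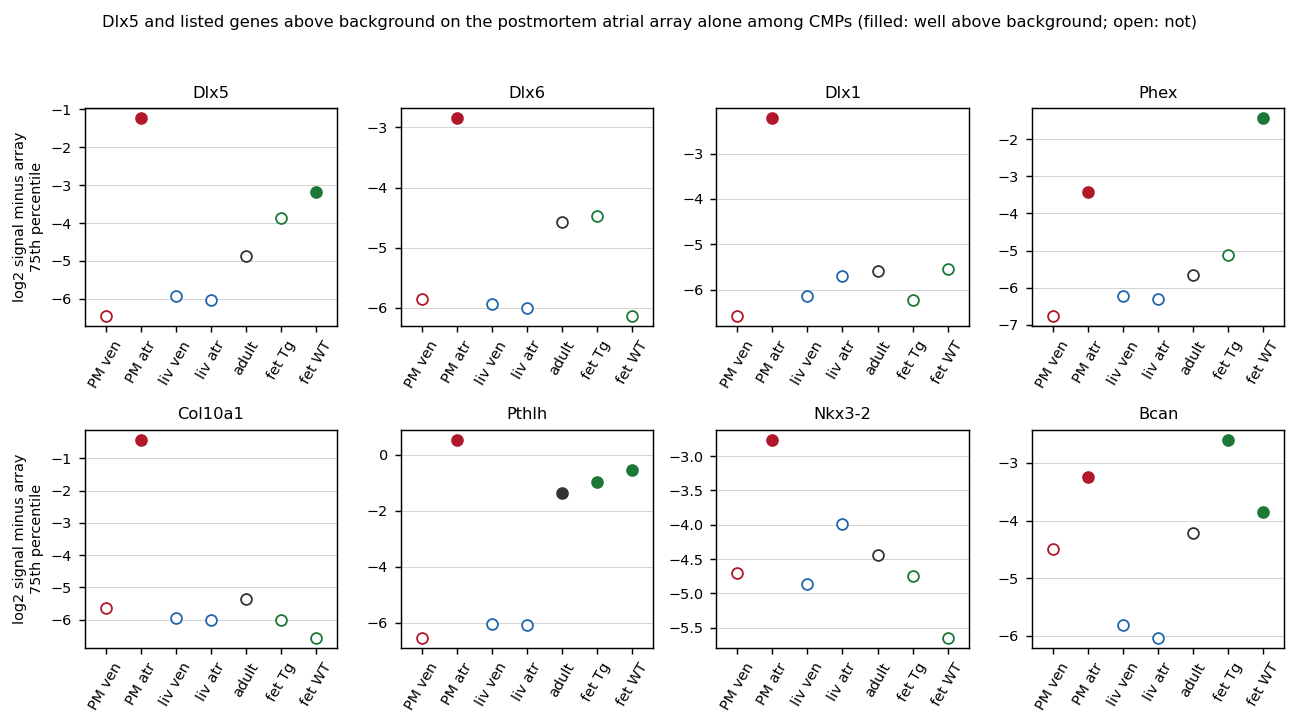
Level of Dlx5 and of 7 listed genes (y axis, log2 processed signal minus the array's 75th percentile) on the 7 arrays (x axis, abbreviations as in the plot of the members by array), filled where well above background. All 8 are filled on the postmortem atrial array and open on the other 3 CMP arrays; Pthlh stood at 0.53 there and Col10a1 at -0.43.

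Sox9, the factor that specifies chondrocytes and is also used in heart valve formation, was above background on all 7 arrays (chr11:112648809-112648868, plus strand). Its level was 3.25 in postmortem ventricular, 2.09 in postmortem atrial, 3.18 in living ventricular and 3.11 in living atrial CMPs, -0.76 in adult heart, 0.61 in Myh6-EGFP and 1.58 in wild-type fetal heart. Every CMP array lay above every heart, fetal hearts above the adult heart, and 3 CMP arrays lay close together with the postmortem atrial array lower. The Sox9 probe was spotted 10 times on each array, and its spots had an SD of 0.0444 to 0.133 log2 units, which covers the measurement on an array and not the spread between samples.

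Sox9 was higher in CMPs than in adult heart by 3.67 ± 0.46 (adjusted p = 0.00229, limma) in every setting tried. It was higher than in fetal heart by 1.81 ± 0.36 (adjusted p = 0.00974), which became 1.33 with an adjusted p of 0.0564 without the Myh6-EGFP fetal array. Adult heart was lower than fetal heart (-1.86 ± 0.50, adjusted p = 0.0361), and this call was lost without the wild-type fetal array (-1.38, adjusted p = 0.0964) and in 3 further settings. Postmortem and living CMPs differed by -0.47 ± 0.41 (adjusted p = 0.732), with 0.08 in the ventricular and -1.02 in the atrial pair. Ventricular and atrial CMPs differed by 0.61 ± 0.41 (adjusted p = 0.79, limma), with 1.16 in the postmortem and 0.06 in the living pair. Without either living array the fit gave the 1.16 of the postmortem pair, with its spread from the fetal pair alone.

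Sox5, a partner of Sox9 without an activation domain of its own, gave 2 pictures that depended on the probe. Its main probe, the purine repeat, was bright everywhere: 5.10 in postmortem ventricular, 5.24 in postmortem atrial, 5.29 in living ventricular and 5.15 in living atrial CMPs, 5.87 in adult heart, 5.28 in Myh6-EGFP and 5.03 in wild-type fetal heart. The 7 levels differed little, with adult heart highest. The fitted difference between CMPs and adult heart was -0.67 ± 0.20 (adjusted p = 0.04), and between CMPs and fetal heart 0.04. The call against adult heart was lost without any 1 CMP array (adjusted p of 0.0869 to 0.178) and with normexp, no filter or no variance trend.

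On the whole array, 23 probes were made of A and G alone, and 22 of them were above background on all arrays. Of these, 18 were highest on the adult heart array and 21 were lower in CMPs than in adult heart, with a median difference of -0.65. The difference of the Sox5 main probe is close to that median.

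The 2 Sox5 probes of mixed sequence were dim in CMPs. A_51_P500318 was above background in adult heart (-2.30) and Myh6-EGFP fetal heart (-4.04), and not in postmortem ventricular (-5.42), postmortem atrial (-5.13), living ventricular (-4.73) or living atrial CMPs (-4.97) or in wild-type fetal heart (-5.55). A_55_P2088765 was above background in adult heart alone (-3.11), with -6.34 to -5.37 on CMPs, -6.28 in Myh6-EGFP and -6.84 in wild-type fetal heart. Adult heart was the highest array with both. In a fit over the 27960 probes tested, Sox5 was at least 3.64-fold lower in CMPs than in adult heart with A_51_P500318 (adjusted p = 0.0203) and at least 2.08-fold lower with A_55_P2088765 (adjusted p = 0.0109). Adult heart exceeded fetal heart by 2.49 ± 0.77 with A_51_P500318 (adjusted p = 0.0477) and at least 2.31-fold with A_55_P2088765 (adjusted p = 0.00988). The adult heart is a single array in each of these. Both probes entered these tests only because they were above background on that array, which favours a call in this direction. The adjusted p-values are therefore not support apart from the levels.

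**Figure D3:**
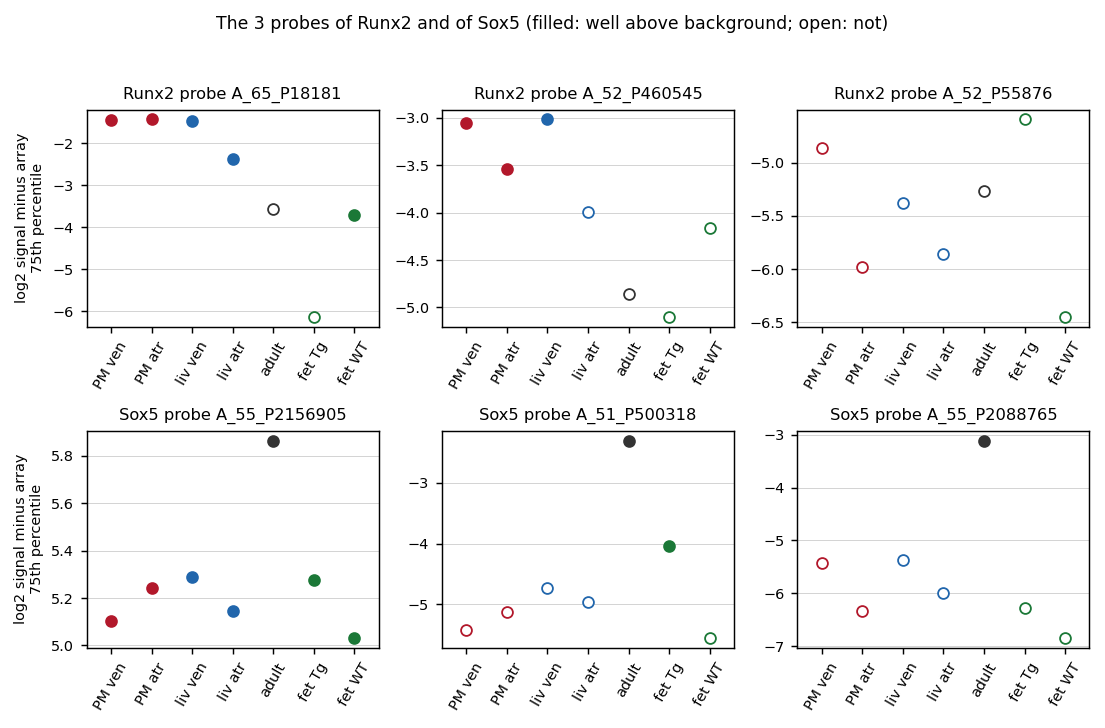
Level of the 3 probes of Runx2 (upper row) and the 3 probes of Sox5 (lower row), as log2 processed signal minus the array's 75th percentile (y axis), on the 7 arrays (x axis, abbreviations as in the plot of the members by array), filled where well above background. The Sox5 purine repeat is filled on all arrays at 5.03 to 5.87, whereas the other Sox5 probes are filled on no CMP array, and the third Runx2 probe is filled on no array.

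Sox6, the other partner of Sox9, was above background only in wild-type fetal heart (-3.10; 1 probe, chr7:122615418-122615477, minus strand). Its level was -5.47 in postmortem ventricular, -4.75 in postmortem atrial, -5.93 in living ventricular and -3.90 in living atrial CMPs, -3.13 in adult heart and -4.02 in Myh6-EGFP fetal heart. It was not tested, since it was not above background on every array of any side.

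Acan, the large proteoglycan of cartilage, was above background in both fetal hearts and on 2 of 4 CMP arrays (chr7:86259741-86259801, plus strand). Its level was -4.26 in postmortem ventricular, -3.14 in postmortem atrial, -3.35 in living ventricular and -3.70 in living atrial CMPs, -3.45 in adult heart, -2.17 in Myh6-EGFP and -1.13 in wild-type fetal heart. Both fetal hearts lay above all other arrays. Acan was lower in CMPs than in fetal heart (-1.96 ± 0.49, adjusted p = 0.0216, limma). Without the wild-type fetal array the difference was -1.44 with an adjusted p of 0.128. In adult heart Acan was at least 3.39-fold lower than in fetal heart by the bound, with a fitted adjusted p of 0.0928 (limma). Acan entered both tests only through the fetal arrays, which favours a call in this direction.

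Mgp had a processed signal of 238600 units in postmortem ventricular, 296400 in postmortem atrial, 132100 in living ventricular and 252200 in living atrial CMPs, 41090 in adult heart, 12830 in Myh6-EGFP and 26080 in wild-type fetal heart (chr6:136821125-136821184, minus strand). The levels were 9.31, 9.77, 8.81 and 9.56 on those CMP arrays, 7.57 in adult heart, 5.65 in Myh6-EGFP and 6.00 in wild-type fetal heart. The arrays fell in the order CMPs, adult heart, fetal heart without overlap, and no spot was saturated. Mgp was higher in CMPs than in fetal heart by 3.54 ± 0.19 (adjusted p = 0.000212) and than in adult heart by 1.80 ± 0.25 (adjusted p = 0.0032), and higher in adult than in fetal heart by 1.74 ± 0.28 (adjusted p = 0.00776). All 3 calls held in every setting. Postmortem and living CMPs differed by 0.36 ± 0.22 (adjusted p = 0.625), and ventricular and atrial CMPs by -0.61 ± 0.22 (adjusted p = 0.564).

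**Figure D4:**
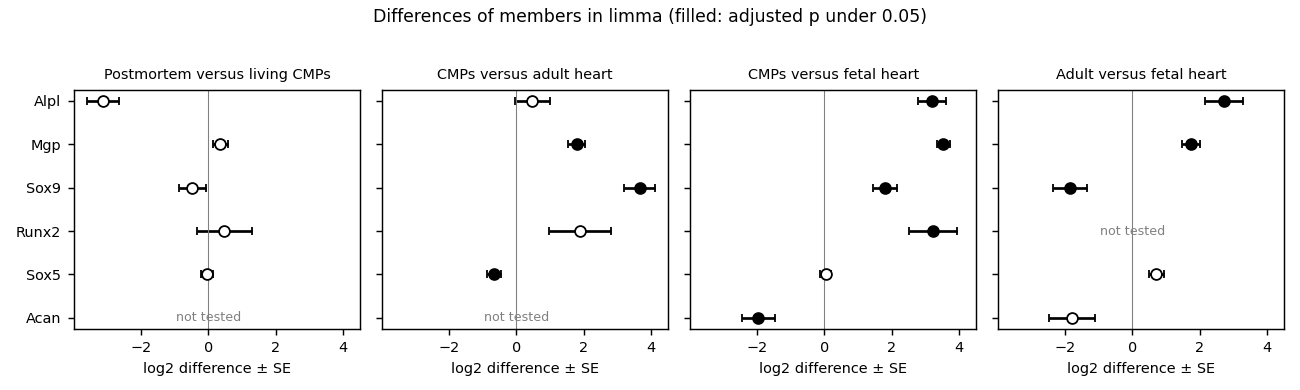
Log2 difference ± SE (x axis) of 6 genes (y axis) in 4 comparisons, each as the first-named group minus the second, from 1 limma fit of 7 arrays; filled points passed an adjusted p of 0.05. Mgp was higher in CMPs than in either heart (1.80 against adult, 3.54 against fetal heart), and the Alpl difference of -3.14 between postmortem and living CMPs is open.

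Between postmortem and living CMPs 0 of 5 tested members were called by limma, where 0.105% of 19011 genes were called (0.00526% higher and 0.0999% lower) and 2100 genes had an unadjusted p under 0.05. Of the members, only Alpl was among those. The groups did not overlap for Runx2, higher in postmortem CMPs, and for Alpl, lower, where 23.9% and 20.1% of genes did so in these directions. Between ventricular and atrial CMPs 0 of 5 were called by limma, where 0.0% of 18910 genes were called and 1561 had an unadjusted p under 0.05. Of the members, only Mgp was among those. The groups did not overlap for Sox9, higher in ventricular CMPs, and for Mgp, lower, where 21.6% and 14.9% of genes did so. The interaction of state and chamber was called by limma for 0 of 5 members, where 2.41% of 19011 genes were called (1.63% higher and 0.778% lower) and 1334 had an unadjusted p under 0.05. Of the members, Alpl alone was among those. The spread in the fit with the interaction came from the fetal pair alone.

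Against fetal heart 5 of 6 tested members were called, where 48.0% of 20052 genes were. CMPs were higher in 4 (Alpl, Mgp, Runx2 and Sox9), where 22.8% of genes were called higher, and lower in Acan, where 25.2% were called lower. The same 5 members did not overlap between the groups, where 30.1% of genes did not in the higher and 31.6% in the lower direction. Against adult heart 3 of 5 were called, where 49.3% of 20278 genes were. CMPs were higher in Mgp and Sox9, where 24.6% of genes were called higher, and lower in Sox5 with its purine repeat, where 24.6% were called lower. These and Runx2 did not overlap between the groups, where 40.7% of genes did not in the higher and 40.8% in the lower direction. Adult and fetal heart differed in 3 of 5 members, where 37.0% of 20946 genes were called. Adult heart was higher in Alpl and Mgp, where 18.8% of genes were called higher, and lower in Sox9, where 18.2% were called lower. All 5 tested members were free of overlap there, 3 higher and 2 lower in adult heart, where 46.3% of genes were in the higher and 41.9% in the lower direction. The members were chosen by name with results known, and no test was made of these shares.

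Other genes of the 2 lineages were read in 6 lists, and no gene of any list passed the limma test between postmortem and living CMPs or between ventricular and atrial CMPs. Of the largest differences by value between postmortem and living CMPs, Tnfsf11, the osteoclast-differentiation ligand, had -3.36 (adjusted p = 0.308), Omd, a keratan sulfate proteoglycan of bone, had 2.64 (adjusted p = 0.269) and Smpd3, a sphingomyelinase needed for normal bone mineral, had 2.52 (adjusted p = 0.246). Tnfsf11 was dim on 1 postmortem and Smpd3 on 1 living array. Col2a1, the main cartilage collagen, had 2.96 (adjusted p = 0.259) and Comp, a cartilage matrix protein, had -2.95 (adjusted p = 0.456). Nt5e, which makes adenosine from AMP and restrains arterial calcification, had -2.55 ± 0.26 (adjusted p = 0.0675). Epyc, a small proteoglycan of cartilage, was dim on both postmortem arrays and at least 4.93-fold lower there than in living CMPs (adjusted p = 0.367). Among relatives of the members, Dlx4 had -1.54, Dlx2 1.34 and Runx1 -1.08. In the tendon list Tnc, a matrix glycoprotein, had -2.73 (adjusted p = 0.287) and was dim on 1 postmortem array. Without the postmortem atrial array the Alpl difference was -2.21. That fit left 1 postmortem array and took its spread from the fetal pair alone, so its calls are not read here. The number of genes called rose when any 1 of the 4 CMP arrays was left out.

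Against fetal heart 9 of 16 tested bone genes were called higher in CMPs and 2 lower, with a list median of 0.88 where the median of all genes tested was -0.01. Over all genes tested, 22.8% were called higher and 25.2% lower. The shares were 24.6% in each direction against adult heart, and 18.8% higher and 18.2% lower for adult against fetal heart. These shares stand beside the counts of every list below, and no test was made of them. Spp1 (osteopontin), a mineral-binding protein, was at 1.72 in postmortem ventricular, 3.65 in postmortem atrial, 4.38 in living ventricular and 2.28 in living atrial CMPs, -0.42 in adult heart, -3.63 in Myh6-EGFP and -3.12 in wild-type fetal heart. All CMPs lay above all hearts, by 6.38 ± 0.78 against fetal (adjusted p = 0.00188; dim on the Myh6-EGFP array) and 3.42 ± 1.00 against adult heart (adjusted p = 0.0354). Tnfrsf11b (osteoprotegerin), the decoy receptor that blocks osteoclast formation, was higher by 5.18 ± 0.41 than in fetal heart (adjusted p = 0.000542) and at least 41.5-fold higher than in adult heart (adjusted p = 0.00103). Omd was at least 12.8-fold higher than in fetal heart (adjusted p = 0.00157). The 2 bone genes lower in CMPs than in fetal heart were Pth1r, the receptor for parathyroid hormone (-2.28 ± 0.31, adjusted p = 0.00282), and Cbfb, the binding partner of Runx factors (-0.74 ± 0.16, adjusted p = 0.0126).

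Against adult heart 9 of 17 bone genes were called higher in CMPs and 2 lower, with a median of 0.98, or 0.83 with dim genes at their bound, where that of all genes was -0.002. Cdh11, a cadherin of osteoblasts and mesenchyme, was higher by 4.74 ± 0.66 (adjusted p = 0.0031), Twist1, which restrains osteoblast maturation, by 3.59 ± 0.30 (adjusted p = 0.00077), and Vdr, the vitamin D receptor, at least 7.42-fold (adjusted p = 0.000857). Phospho1, a phosphatase of matrix vesicles, was called lower (adjusted p = 0.00461), at -1.09 in adult heart and above background on 1 of 4 CMP arrays. Between adult and fetal heart 3 of 16 bone genes were called higher and 7 lower (median -0.72, all genes 0.09).

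Cartilage genes went in both directions, as genes in general did. Against fetal heart 4 of 16 were called higher in CMPs and 6 lower, with a median of -1.14. Over all genes tested 22.8% were called higher and 25.2% lower. Hapln1, the link protein that holds aggrecan on hyaluronan, was at least 55.4-fold lower in CMPs (adjusted p = 0.000122), and Col9a2, a collagen of cartilage fibrils, was lower (-4.39 ± 0.52, adjusted p = 0.0017). Col9a1 was lower by its main probe (-4.26 ± 0.67, adjusted p = 0.00439), while its other probe, above background on 2 arrays, had a difference of means of 0.78. Prg4 (lubricin) was at least 9.5-fold higher (adjusted p = 0.000785) by its main probe, and its other probe was dim on all arrays. Comp was higher by 3.46 ± 1.04 (adjusted p = 0.0394) and Col11a1, a minor fibril collagen, by 2.14 ± 0.56 (adjusted p = 0.0251).

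Against adult heart 5 of 19 cartilage genes were called higher in CMPs and 6 lower (median -0.91), where 24.6% of all genes were called in each direction. Col2a1 was at 4.14 in postmortem ventricular, 5.37 in postmortem atrial, 2.42 in living ventricular and 1.18 in living atrial CMPs, -5.42 in adult heart, where it was not above background, 4.04 in Myh6-EGFP and 5.23 in wild-type fetal heart. All CMP and fetal arrays were above the adult one, at least 103.1-fold for CMPs (adjusted p = 0.000791). Col11a1 was at least 41.3-fold higher (adjusted p = 0.00103). Cilp, a cartilage and tendon matrix protein, was at least 23.6-fold lower in CMPs (adjusted p = 0.00159), and Prg4 was lower (-2.31 ± 0.57, adjusted p = 0.0205). Between adult and fetal heart 3 of 20 cartilage genes were called higher, with Prg4 at least 47.1-fold (adjusted p = 0.00163), and 7 lower, with Col2a1 at least 264.1-fold (adjusted p = 0.00135). The median was -0.74.

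Genes that control mineral, a process that Alpl promotes and Mgp restrains, were called higher in CMPs than in fetal heart for 5 of 11 and lower for 1 (median 1.38). Without the postmortem atrial array the counts were 5 and 0 and the median was 0.38. Gas6, which like Mgp carries vitamin K-dependent Gla residues, was higher by 3.29 ± 0.26 (adjusted p = 0.000546). Ggcx, the carboxylase that makes those residues, was higher by 1.99 ± 0.19 (adjusted p = 0.000862), and Vkorc1, which recycles vitamin K for it, by 1.54 ± 0.16 (adjusted p = 0.00108). Enpp1, which makes the mineral inhibitor pyrophosphate, was higher by 2.22 ± 0.40 (adjusted p = 0.00681).

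The same 4 genes were called higher in CMPs than in adult heart, by 2.50 ± 0.34 for Gas6, 2.13 ± 0.24 for Ggcx, 2.69 ± 0.20 for Vkorc1 and 2.43 ± 0.51 for Enpp1 (adjusted p of 0.00295, 0.00169, 0.000609 and 0.0121). The 2 comparisons share the CMP arrays. Over the list 5 of 11 were called higher and 3 lower than in adult heart (median 0.12), the lower ones including Nt5e (-1.81 ± 0.30, adjusted p = 0.00552). Between adult and fetal heart 3 of 11 were called higher and 1 lower (median 0.80).

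Among relatives of the members, 5 of 13 were called higher in CMPs than in fetal heart and 4 lower (median -0.50), and against adult heart 7 of 11 higher and 2 lower (median 2.16, or 0.80 with dim genes at their bound). Runx1, the blood and stromal relative of Runx2, was higher by 2.88 ± 0.24 than in fetal heart (adjusted p = 0.000625) and by 3.76 ± 0.31 than in adult heart (adjusted p = 0.000754). Dlx2 was above background on all 4 CMP arrays, at -1.39 in postmortem ventricular, -0.13 in postmortem atrial, -1.82 in living ventricular and -2.39 in living atrial CMPs. Dlx2 was called higher than in fetal heart (adjusted p = 0.00734), where only the wild-type array (-4.29) was above background, and at least 3.94-fold higher than in adult heart (adjusted p = 0.0125), in which it was dim. Sox11, a fetal progenitor factor, was at least 76.4-fold lower in CMPs than in fetal heart (adjusted p = 0.000145). Between adult and fetal heart 1 of 11 relatives was called higher and 4 lower (median -0.88, or -0.18 with dim genes at their bound).

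In the tendon list 0 of 5 tested genes were called higher by limma in CMPs than in fetal heart and 2 lower (median -0.55). They were Thbs4, a muscle and tendon matrix protein (adjusted p = 0.00134), and Scx, the tendon lineage factor (-2.76 ± 0.69, adjusted p = 0.0218). Thbs4 was above background on 1 CMP array, living ventricular, at -1.69, against 3.88 in Myh6-EGFP and 3.12 in wild-type fetal heart, and was dim on the other 3, so no size is given. Without the postmortem atrial array 2 of the 5 were higher and 2 lower, and the median was 0.14. Against adult heart 0 of 4 were higher and 2 lower (median -0.43, or -1.16 with dim genes at their bound), and without the postmortem atrial array 3 of 5 were higher and 2 lower. Adult against fetal heart gave 0 of 4 higher and 1 lower (median -0.65). In the valve and cushion list 2 of 10 were called higher in CMPs than in fetal heart, both regulators of mesenchyme (Snai1 by 2.79 ± 0.60, adjusted p = 0.0131, and Twist1 by 0.96 ± 0.23, adjusted p = 0.0196), and 3 lower (median -0.66). Against adult heart 4 of 9 were higher and 0 lower (median 1.38), and between adult and fetal heart 0 of 10 were higher and 5 lower (median -1.46).

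The fetal pair differed in several of these genes, as Myh6-EGFP minus wild type. Of the members above background on both arrays, the difference was -1.04 for Acan, -0.97 for Sox9, -0.55 for Alpl, -0.36 for Mgp and 0.25 for the purine repeat of Sox5, where the median absolute difference over all genes was 0.336. Of members dim on the Myh6-EGFP array, Runx2 was at least 1.25-fold, Sox6 at least 1.89-fold and Dlx5 at least 1.59-fold lower there. Sox5 with A_51_P500318 went the other way, being above background on the Myh6-EGFP array alone. Of 21 cartilage genes above background on either array, 4 were higher and 17 lower on the Myh6-EGFP array (median -1.62, with 0.12 over all genes). Of 21855 genes in all, 12961 were higher and 8893 lower there. Markers of airway epithelium, liver and skeletal muscle were lower there too. Their summed levels on the Myh6-EGFP and wild-type arrays were 0.341 and 22.7 for airway epithelium, 0.427 and 23.7 for liver, and 0.817 and 5.81 for skeletal muscle. Stromal markers were lower there for 9 of 10 and Schwann and neural crest markers for 5 of 5. Other markers were mostly higher there: erythroid for 6 of 6, endothelial for 7 of 8, smooth muscle and pericyte for 5 of 8 and adipocyte for 2 of 2. The cardiomyocyte sum was 5180 on the Myh6-EGFP array and 2994 on the wild-type array. The part of these tissues and cell types in the fetal levels of the members was not tested. Without the wild-type fetal array, 1 fetal array was left, so only medians are given. For CMPs minus the Myh6-EGFP fetal heart the median was 2.89 over 6 tested members and -0.126 over all genes tested. By list it was 1.24 for bone, -0.85 for cartilage, 1.125 for mineral genes, -0.497 for relatives, -0.476 for tendon and -0.665 for valve genes. For adult heart minus the Myh6-EGFP fetal heart the median was 0.586 over 5 members and -0.024 over all genes. By list it was -0.935 for bone, -0.525 for cartilage, 0.379 for mineral genes, -0.314 for relatives, -0.439 for tendon and -1.66 for valve genes. Counts for CMPs against adult heart moved by no more than 1 in any list when the wild-type fetal array was left out.

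Without the postmortem atrial array, 4 of 6 members were called higher in CMPs than in fetal heart and 1 lower, and the counts were 9 higher and 2 lower for bone, 4 and 8 for cartilage, 5 and 6 for relatives and 2 and 4 for valve genes. Of all 20280 genes tested against fetal heart, 4383 were then called higher and 4869 lower. Against adult heart 4 of 5 members were then called higher in CMPs (Alpl, Mgp, Runx2 and Sox9) and 0 lower. Of all 20538 genes tested there, 4766 were called higher and 5022 lower. The list counts against adult heart were 7 higher and 2 lower for bone, 8 and 7 for cartilage, 5 and 4 for mineral genes, 6 and 2 for relatives and 5 and 0 for valve genes. Adult against fetal heart, with 1 residual degree of freedom in that fit, gave 2 of 5 members higher and 2 lower. Of all 20946 genes tested there, 4606 were called higher and 4145 lower. The lists gave 4 higher and 7 lower for bone, 5 and 10 for cartilage, 5 and 1 for mineral genes, 2 and 4 for relatives, 0 and 2 for tendon and 0 and 9 for valve genes. All fits without that array take their spread from the fetal pair alone. Comparisons within CMPs then have 1 array on a side, so only medians are given for them. For postmortem minus living CMPs these were -0.20 for bone, 0.25 for cartilage, 0.02 for mineral genes, -0.21 for relatives, 0.75 for tendon and -0.06 for valve genes. For ventricular minus atrial CMPs they were 0.21 for bone, -0.47 for cartilage, 0.06 for mineral genes, 0.39 for relatives, -1.33 for tendon and 0.16 for valve genes.

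**Figure D5:**
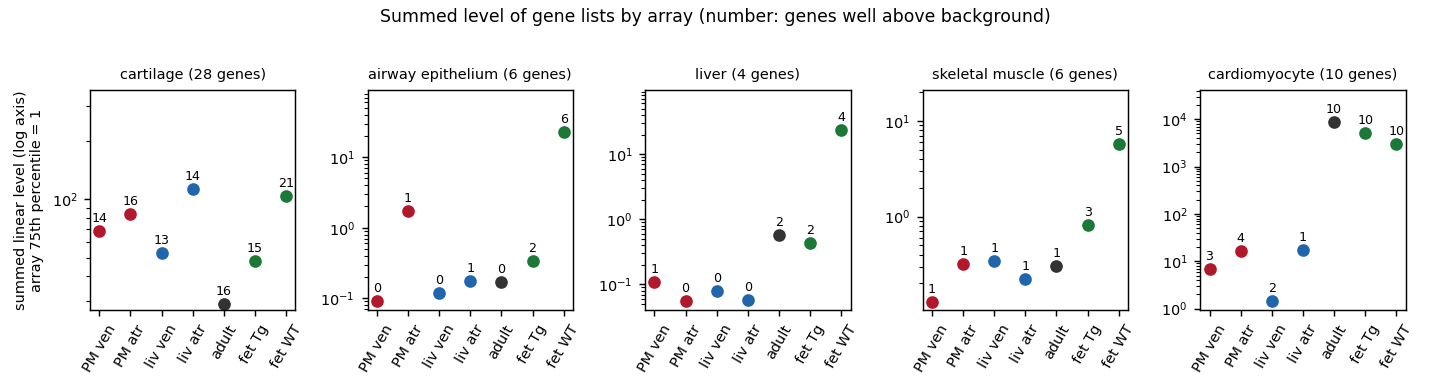
Summed linear level (y axis, log scale) of the cartilage list and of the airway epithelium, liver, skeletal muscle and cardiomyocyte marker lists on the 7 arrays (x axis, abbreviations as in the plot of the members by array), with the number of genes above background beside each point. The wild-type fetal heart stands at 22.7 for airway, 23.7 for liver and 5.81 for skeletal muscle markers, above the Myh6-EGFP fetal heart at 0.341, 0.427 and 0.817, while the cartilage sum is 103.4 against 48.2.

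For each member above background on at least 1 array, the 2 genes of most similar pattern were found by Pearson's r over the 7 arrays, among about 8494 genes that spanned at least 2 log2 units. These values are descriptions, since 7 arrays of 4 groups share their group differences. Closest to Alpl were Gm6484 (now Angptl8), at 0.975, and Lcn2, at 0.964. For Mgp they were Itgbl1 (0.996) and Tmem106b (0.992), and for Runx2 Adamts10 (0.988) and Ddr2 (0.987), of which Ddr2 is on the stromal marker list. For Sox9 they were Slc1a6 (0.994) and AI848100 (now Suco, 0.992), for Acan Cnih2 (0.98) and Dner (0.978), and for Dlx5 Lphn3 (now Adgrl3, 0.987) and Grpr (0.97). Sox6 had Lrrc16b (now Carmil3, 0.964) and Trcg1 (0.949). The Sox5 purine repeat had Map1lc3a and 4930579C15Rik (now Eqtn), both at 0.995.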

How the data were processed

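The authors deposited, for each array, a scanner table with linear spot intensity, including a processed signal after background subtraction and detrending, per the file headers. Feature Extraction is given as version 10.7.3.1 in the headers and as 9.5.3 in the submitters' processing notes. A series matrix of log2 values was deposited too. On every array it matched the log2 processed signal, less 1 constant, at 100% of probes (tolerance 0.01), which settles its scale and direction and shows no centring by gene. Its column medians were -4.17 in postmortem ventricular, -4.25 in postmortem atrial, -4.13 in living ventricular and -4.21 in living atrial CMPs, -3.60 in adult heart, -3.87 in Myh6-EGFP and -4.03 in wild-type fetal heart; it served as an alternative. For labelling, 250 ng of RNA was used.

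From the scanner tables, spots of a probe were averaged (432 probes), 11 probes with outlier flags were left out, and each array's 75th percentile of the log2 processed signal was subtracted. The share of probes well above background was 46.5% to 52.5% per array. The number of arrays limits the precision. A gene was read by its probe of highest mean. Limma 3.58.1 in R 4.3.3 (lmFit, eBayes with trend) fitted 7 arrays with terms for postmortem CMPs, living CMPs, adult heart, fetal heart and chamber, leaving 2 residual degrees of freedom (1 with the interaction). Genes entered a test if that probe was above background throughout 1 side or both. Entry through 1 side alone favours a call of higher level on that side. P-values were two-sided and Benjamini-Hochberg adjusted over all genes tested, with a threshold of 0.05. Tables and figures used Python 3.11.15 with pandas 2.3.3, numpy 2.4.6 and matplotlib 3.10.9. The fit was checked on simulated data. Probe positions are the authors' mm9 positions, and probe sequences come from their scanner tables.

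The members and the lists were chosen with earlier results of these data known. Genes named beside the members are, from each list and comparison, up to 4 called genes of largest difference in each direction or, without a call, up to 3 by value, and the genes above background on 1 CMP array alone, which were chosen after their values were seen. Alternatives were the background correction, scaling, filter, terms and arrays of the fit. Scaling over probes above background on all arrays, and the list counts and medians without the wild-type fetal or the postmortem atrial array, were chosen after seeing the data. Slide and scan were not run as a block, since there was 1 slide and 1 scan time.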

Additional observations from a re-analysis of the deposited data

Results flagged for a closer look

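Of 8 probes of the members above background on at least 1 CMP array, 3 had 1 array far from the other 3 CMP arrays, measured as its gap to the nearest array over the whole range, where chance flags about 1 in 20. Runx2 (A_65_P18181) was at -2.38 on the living atrial array, against -1.46 to -1.44 on the other CMPs. Sox9 was at 2.09 on the postmortem atrial array, against 3.11 to 3.25 on the others. Dlx5 was at -1.23 on the postmortem atrial array, against -6.46 to -5.94 on the others, where it was not above background. It entered this check only through the array that was then flagged, which favours a flag.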

How the results depend on the processing

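For single members the call and direction stayed under 94 of 100 combinations of member and setting for CMPs against fetal heart, 64 of 79 against adult heart (8 gained a call, 7 lost one or changed sign with no call), 64 of 79 for adult against fetal heart (9 and 6), 82 of 90 for postmortem against living CMPs and 78 of 90 for the chambers. Counts of members called lower against fetal heart were 0 when probes had to be above background on every array of both sides. Against adult heart they were 0 with normexp, with no filter and without the variance trend, where the Sox5 purine repeat was lost. Between adult and fetal heart they were 0 with quantile normalization, without the trend and without chamber or state terms, where Sox9 was lost. The interaction was called for 1 member, Dlx5, with no filter (adjusted p = 0.0431), where it is dim on 3 of 4 CMP arrays. Leaving out 1 array at a time gave 0 to 1 members higher and 0 to 1 lower for postmortem against living CMPs, and 0 to 2 higher and 0 to 1 lower for ventricular against atrial CMPs. It gave 3 to 4 higher and 0 to 1 lower for CMPs against fetal heart, 3 to 4 higher and 0 to 1 lower against adult heart, and 1 to 2 higher and 0 to 2 lower for adult against fetal heart. No called value changed sign. The ventricular minus atrial difference of Alpl was 0.42 and ran from -0.51, without either postmortem array, to 1.35, without either living array. Scaling on probes above background on all arrays moved the median of all genes to -0.18 for CMPs against fetal heart and -0.16 against adult heart. The interaction could not be refitted without a CMP or fetal array, and CMPs could not be set against adult heart without its array. No paired analysis was possible because the replicate numbers only name arrays, and chamber, the one shared label, was a term of the fit.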
